A study of Mus musculus with 4 samples.

Results

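Ratios of skin over a cell-line reference were examined for 47 genes of blood and lymphatic endothelium among the 19532 named genes of a whole-genome array. Endothelial cells line blood and lymphatic vessels. VEGF ligands act on them through the receptors Flt1, Kdr and Flt4 with the co-receptors Nrp1 and Nrp2, while angiopoietins act through Tek, in a complex that also holds Tie1. SOX and ETS transcription factors drive much of the endothelial programme, and in skin a dermal plexus of blood vessels runs beside lymphatic capillaries. The genes were chosen by symbol for vascular and lymphatic endothelial identity and angiogenic signalling. All 47 were on the array, 46 under the listed symbol and Figf under its present name Vegfd, with 87 probes in all.

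The 4 samples form 1 group: total RNA of skin from heterozygous Tsk1/+ mice, which carry a mutation of the fibrillin-1 gene and serve as a model of scleroderma. The arrays are called 1-1, 1-2, 2-1 and 2-2 after their titles. The labels give no age, sex or skin site. Nor do they say whether the 4 samples are from different animals, and the spread behind each p-value may be technical. Each sample was set against cell-line RNA named UMR on a 2-colour Agilent array, with skin in Cy3 and this reference in Cy5 on all 4 arrays. Whether UMR is a single cell line or a pool of lines was not examined here. Because the dyes were never swapped, a dye effect cannot be told apart from a difference between skin and reference. No unmutated skin was analysed here, so none of the values below is an effect of Tsk1. In bulk skin, fewer cells of a type and less RNA per cell cannot be told apart.

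A value below is a log2 ratio of skin over reference, so 1 is a 2-fold higher signal in skin. It depends on the reference as well as on skin, and a low ratio can reflect a high signal in the reference. Ratios of different genes or lists therefore do not rank their abundance in skin. A gene was called higher or lower where limma's Benjamini-Hochberg adjusted p over all 19532 genes was below 0.05 and the mean over the 4 arrays was at least 1 in size. The direction of the deposited ratios is not given in the sources used here. As deposited, 12 genes of cornified epidermis had array medians of -4.81 to -6.10, 7 of skeletal muscle -5.92 to -7.19 and 6 of adipocytes -5.77 to -6.25. The sign was turned so that the epidermal genes are higher in skin, and the muscle and adipocyte genes turned the same way. This direction is likely, not stated. The log base was likewise read from the values. The share of probes listed at exactly 0 was 21.4% to 29.1% on an array, and a 0 can be a ratio that could not be measured. Between 45.4% and 54.1% of an array's values, zeros included, were repeated values shared by over 100 probes.

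Of the 47 endothelial genes, 21 (44.7%) were called higher in skin and 4 (8.51%) lower, against 11.0% higher and 7.52% lower of all genes tested. The median of their mean log2 ratios was 0.92, and that of all genes was 0.02. The array medians of the 47 genes lay between 0.74 and 0.83. The ratio was above 0 on all 4 arrays for 28 of the genes and below 0 on all 4 for 9, and the same count over all genes is not given here. All 25 called genes lay on 1 side of 0 on every array, which the rule for a call all but requires. The median SD between arrays was 0.26 for these genes and 0.20 for all genes. Of the 22 genes not called, 11 passed the adjusted p but not the minimum size, 7 of them above 0 and 4 below. For 5 genes, Erg, Flt4, Angpt1, Sele and Prox1, every value of every probe was a repeated value, so their ratios carry little measurement. Tested against a 2-fold change itself (limma's treat), 13 genes were called higher and none lower. The plot of the genes by array shows the role groups in this order.

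**Figure D1:**
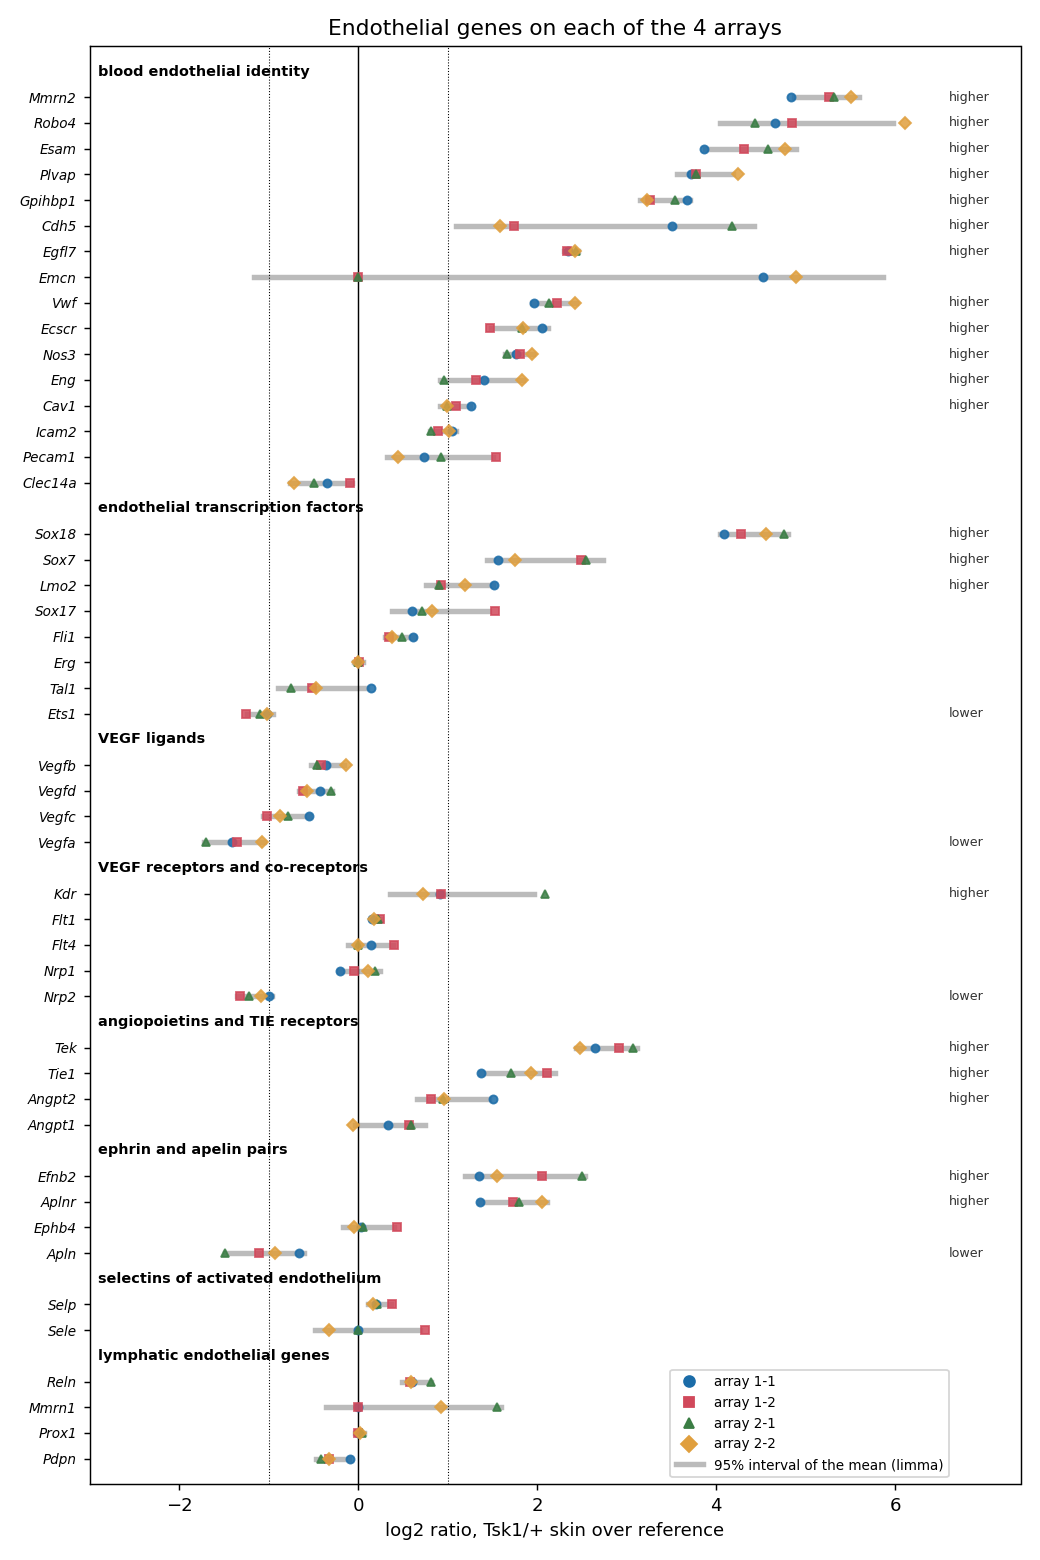
The log2 ratio of Tsk1/+ skin over reference (x axis) is shown for each endothelial gene (y axis, grouped by role) on each of the 4 arrays, with the 95% limma interval of the mean as a grey bar, the call at the right, and dotted lines at -1 and 1. Identity genes reach the highest ratios (Mmrn2 at 5.23, Robo4 at 5.01), the 4 VEGF ligands all lie below 0, and Emcn and Cdh5 have the widest intervals.

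The genes that mark blood endothelium as such had the highest median ratio of the role groups, 2.27. Of these 16 genes, 12 were called higher and none lower. Mmrn2, an extracellular matrix protein deposited by endothelium, had 4.84, 5.26, 5.32 and 5.51 on arrays 1-1, 1-2, 2-1 and 2-2. All 4 arrays were high and close together, with a mean of 5.23 ± 0.28 (SD, n = 4), a 37.6-fold ratio (limma adjusted p = 0.000325). Robo4, a roundabout receptor found on endothelium, had 4.66, 4.85, 4.43 and 6.11, with array 2-2 above the others. Its mean was 5.01 ± 0.75 (SD, n = 4; limma adjusted p = 0.00152). Esam, an adhesion molecule of endothelial junctions, had 3.87, 4.31, 4.58 and 4.77, a mean of 4.38 ± 0.39 (SD, n = 4; limma adjusted p = 0.000606). Plvap, the protein of the diaphragms of fenestrae and caveolae, had 3.72, 3.78, 3.77 and 4.24 (mean 3.88, limma adjusted p = 0.000374). The 3 lower arrays of Plvap were nearly equal. Gpihbp1, which carries lipoprotein lipase across capillary endothelium, had 3.67, 3.26, 3.54 and 3.23 (mean 3.43, limma adjusted p = 0.000374).

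Egfl7, a secreted protein of endothelium, had the tightest values of the called genes, 2.34, 2.33, 2.43 and 2.42, with a mean of 2.38 ± 0.05 (SD, n = 4; limma adjusted p = 0.00021). Nos3, the endothelial nitric oxide synthase, had 1.76, 1.81, 1.66 and 1.94 (mean 1.79, limma adjusted p = 0.000397). Ecscr, a small surface protein of endothelium, had 2.06, 1.47, 1.83 and 1.84 (mean 1.80, limma adjusted p = 0.00127). These 3 genes were well above 0 on every array. Eng, a co-receptor for TGF-beta family ligands, had 1.41, 1.32, 0.96 and 1.83 (mean 1.38, limma adjusted p = 0.00576). Cav1, the main caveolar coat protein and not particular to endothelium, had 1.26, 1.09, 0.99 and 0.99 (mean 1.08, limma adjusted p = 0.000982). Both lay near the minimum size.

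The best-known junction and matrix markers were read less evenly. Cdh5, the cadherin of endothelial junctions, had gene values of 3.51, 1.74, 4.18 and 1.59, a mean of 2.75 ± 1.29 (SD, n = 4; limma adjusted p = 0.0283). One of its probes had 2.39, 3.48, 3.51 and 3.17, while the other gave 4.63 on array 1-1, 4.84 on array 2-1 and an exact 0 on the rest. The first probe was high on all 4 arrays, and the second alone splits the arrays. Leaving out any 1 array ended the call of Cdh5, with means of 2.28 to 3.14 (limma adjusted p = 0.0563 to 0.109), and leaving out exact zeros gave a mean of 3.59 (limma adjusted p = 9.15e-06). Vwf, the clotting factor stored by endothelium, had 1.97, 2.22, 2.13 and 2.42 (mean 2.19, limma adjusted p = 0.000588). Its gene value averages probes at 3.39 and 3.17 with a probe listed at 0 on every array. Emcn is a sialomucin of capillaries and veins, and its only probe gave 4.52 on array 1-1, 4.89 on array 2-2 and an exact 0 on the others (limma adjusted p = 0.229, not called).

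Pecam1 (CD31), the junction protein most used to stain vessels, had 0.74, 1.54, 0.93 and 0.45, a mean of 0.92 ± 0.46 (SD, n = 4; limma adjusted p = 0.0346), below the minimum size. Its probes disagreed: that with a RefSeq accession averaged 1.77 and that with another cDNA accession 0.06, the latter on repeated values on every array. Pecam1 was called higher without exact zeros (mean 1.33, limma adjusted p = 0.00258) and without zeros and repeated values (mean 1.77, limma adjusted p = 4.02e-06). It was also called with RefSeq probes alone, an alternative chosen after seeing the data (mean 1.77, limma adjusted p = 0.000831). Icam2, an adhesion molecule of resting endothelium, had 1.05, 0.89, 0.82 and 1.02 (mean 0.95, limma adjusted p = 0.000976), just under the size needed. Clec14a, a lectin of endothelium, was the only identity gene with a mean below 0, at -0.35, -0.09, -0.49 and -0.72 (mean -0.41, limma adjusted p = 0.0649, not called). Of its 8 probe values, 7 were repeated values.

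Among the 8 transcription factors, 3 were called higher and 1 lower, with a median of 0.69. The SOXF factors Sox7, Sox17 and Sox18 act together in vessel formation. Sox18 had 4.09, 4.28, 4.76 and 4.56, a mean of 4.42 ± 0.29 (SD, n = 4; limma adjusted p = 0.000395). Sox7 had 1.56, 2.49, 2.55 and 1.75 (mean 2.09, limma adjusted p = 0.00483). Its probes averaged 2.80 and 1.38. The second was at an exact 0 on array 1-1 and was not called (limma adjusted p over probes = 0.104). The gene values of Sox18 and Sox7 were well above 0 on all 4 arrays. Sox17 had 0.60, 1.53, 0.71 and 0.83 (mean 0.92, limma adjusted p = 0.0264), below the minimum size. Its 4 probes ranged from -0.18 to 3.07, and the highest was called at the probe level (limma adjusted p over probes = 0.0017). Without exact zeros Sox17 was called higher (mean 1.45, limma adjusted p = 6.94e-05), and also without zeros and repeated values (mean 3.0, limma adjusted p = 8.45e-07). The other 3 probes of Sox17 were mostly at or near 0.

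The ETS factors did not share a direction. Ets1, which leukocytes also use, was lower on every array at -1.02, -1.25, -1.09 and -1.02, a mean of -1.09 ± 0.11 (SD, n = 4; limma adjusted p = 0.000735). Its 4 probes were all below 0, from -1.74 to -0.45, and with RefSeq probes alone its mean of -0.99 fell just short of the size needed. Fli1 had 0.61, 0.35, 0.49 and 0.38 (mean 0.46, limma adjusted p = 0.00641, not called). Erg was listed at 0 or 0.01 on all 4 arrays. Lmo2, a partner of Tal1 in a complex of blood and endothelial precursors, had 1.52, 0.93, 0.90 and 1.19 (mean 1.13, limma adjusted p = 0.00556). Tal1 itself had 0.15, -0.52, -0.75 and -0.47 (mean -0.40, limma adjusted p = 0.162, not called). The partners thus lay on opposite sides of 0 on 3 of the 4 arrays, but Tal1 was read by a single probe, with another cDNA accession.

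All 4 VEGF ligands had means below 0, with a median of -0.64, and 1 was called lower. Vegfa, the main ligand of blood vessel growth, had -1.41, -1.35, -1.70 and -1.07, a mean of -1.39 ± 0.26 (SD, n = 4; limma adjusted p = 0.00254). Every array was at or beyond -1.07, and 3 of its 4 probes were called lower on their own, the fourth lying at -0.84. The lymphatic ligands Vegfc (-0.55, -1.02, -0.78 and -0.87, mean -0.80) and Vegfd (-0.43, -0.61, -0.30 and -0.57, mean -0.48) were below 0 on every array. They passed the adjusted p (limma, 0.00494 and 0.00844) but not the size. Vegfb had -0.36, -0.41, -0.46 and -0.14 (mean -0.34, limma adjusted p = 0.0209).

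The receptors spread on both sides of 0, with 1 of 5 called higher, 1 lower and a median of 0.14. Kdr (VEGFR2), the main signalling receptor for Vegfa, had 0.91, 0.93, 2.09 and 0.73, a mean of 1.16 ± 0.62 (SD, n = 4; limma adjusted p = 0.0408). Array 2-1 stood above the other 3. Leaving out any array ended the call. Without 2-1 the mean was 0.85 (limma adjusted p = 0.00956), under the minimum size, and without 1-1, 1-2 or 2-2 it was 1.25, 1.24 or 1.31 (limma adjusted p = 0.0912 to 0.124). Its RefSeq probe had 1.77, 1.90, 4.13 and 1.46, while the other averaged 0.01. Flt1 (VEGFR1), which binds Vegfa with weak signalling, had 0.16, 0.24, 0.22 and 0.18 (mean 0.20, limma adjusted p = 0.00484), over 5 probes that ranged from -0.38 to 0.97. Flt4 (VEGFR3), the lymphatic receptor, gave 0.15 on array 1-1, 0.40 on array 1-2 and an exact 0 on the others. Nrp1 averaged 0.01 ± 0.17 (SD, n = 4), while Nrp2, the co-receptor used more by veins and lymphatics, was lower on every array at -0.99, -1.32, -1.22 and -1.08 (mean -1.15, limma adjusted p = 0.00114).

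In the angiopoietin group 3 of 4 genes were called higher, with a median of 1.42. The receptor Tek (TIE2) had 2.65, 2.91, 3.07 and 2.48, a mean of 2.78 ± 0.26 (SD, n = 4; limma adjusted p = 0.000657). Its probes averaged 4.18 and 1.37, both called higher. It was the only gene with several probes of which all were called the same way. Tie1 had 1.37, 2.11, 1.71 and 1.93 (mean 1.78, limma adjusted p = 0.00231). Angpt2, the context-dependent ligand that endothelium releases, had 1.51, 0.81, 0.95 and 0.96 (mean 1.06, limma adjusted p = 0.00788). Its call rested on array 1-1, without which the mean was 0.91. Angpt1, the activating ligand, made largely by cells around the vessel, had 0.33, 0.57, 0.59 and -0.06 (mean 0.36, limma adjusted p = 0.121).

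The ephrin and apelin pairs split between partner genes. Efnb2, the ephrin of arteries, had 1.35, 2.05, 2.50 and 1.55 (mean 1.87, limma adjusted p = 0.00687), whereas its venous receptor Ephb4 had 0.03, 0.43, 0.05 and -0.05 (mean 0.11, limma adjusted p = 0.452). Aplnr, the apelin receptor, had 1.36, 1.73, 1.80 and 2.06 (mean 1.74, limma adjusted p = 0.00195). Its probes differed most of any endothelial gene: one had 3.74, 3.47, 3.60 and 3.42, and the other, all on repeated values, averaged -0.08. The ligand Apln was lower, at -0.66, -1.11, -1.49 and -0.93 (mean -1.05, limma adjusted p = 0.0111). Of its 3 probes 2 were called lower and 1 lay on repeated values. Leaving out array 1-2, 2-1 or 2-2 ended the Apln call (limma adjusted p = 0.0263 to 0.0651, the means without these arrays -1.03, -0.90 and -1.08).

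The leukocyte-binding selectins of activated endothelium were not called. Selp, which platelets also store, had 0.20, 0.38, 0.21 and 0.17 (mean 0.24, limma adjusted p = 0.0213). Sele was listed at 0 on arrays 1-1 and 2-1, with 0.75 on 1-2 and -0.33 on 2-2. Array values of Sele thus lay on both sides of 0.

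None of the 4 lymphatic genes was called with all probes averaged and exact zeros kept, and their median was 0.32. Leaving out exact zeros added 1 call, that of Reln (mean 1.72, limma adjusted p = 0.00105), as did leaving out zeros and repeated values (mean 1.93, limma adjusted p = 1.21e-05). RefSeq probes alone, chosen after seeing the data, also gave the Reln call with zeros kept (mean 1.93, limma adjusted p = 0.00236). Prox1, the transcription factor that defines lymphatic identity, was listed at 0 to 0.04 on all 4 arrays, and all its probe values were repeated values. Pdpn, a mucin of lymphatic endothelium that keratinocytes and fibroblasts also make, had -0.09, -0.33, -0.41 and -0.33 (mean -0.29, limma adjusted p = 0.0336). Reln, a secreted glycoprotein of lymphatic collectors and of neurons, had 0.60, 0.58, 0.82 and 0.59 (mean 0.65, limma adjusted p = 0.00258). Its RefSeq probe had 1.81, 1.73, 2.47 and 1.70 and was called higher over probes, while its other probes were at or near 0. Mmrn1, stored by platelets and made by lymphatic endothelium, gave 1.55 on array 2-1, 0.93 on array 2-2 and an exact 0 on the others. Among the further endothelial genes, Lyve1, a hyaluronan receptor of lymphatic capillaries, gave 1.93 on array 1-2, 1.96 on array 2-1 and an exact 0 on the others. Ccl21a, a chemokine of lymphatic vessels, had 4.71, 4.04, 3.94 and 4.81 (mean 4.37, limma adjusted p = 0.000721). Probes of the near-identical Ccl21 copies may share its signal. In the other direction, Nr2f2, a venous and lymphatic factor of the same list, was called lower. It had -1.35, -1.41, -1.67 and -1.29 (mean -1.43, limma adjusted p = 0.000962).

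Promoter sequence is shown for 4 called genes whose windows hold letters bound by ETS or SOX factors, since such factors drive endothelial genes. The 250 bases before the start farthest upstream were taken from RefSeq (GRCm38.p6) and were found for 28 of the 47 genes. The motifs were picked after the data were seen. For ETS factors they were GGAAGT, which reads ACTTCC on the other strand, and CAGGAAG, which reads CTTCCTG there, and these share letters with each other. For SOX factors the motif was AACAAT, which reads ATTGTT on the other strand. Each is printed 5′ to 3′ on the gene's strand, with motif letters in capitals.
Robo4, chr9:37401722-37401971, plus strand: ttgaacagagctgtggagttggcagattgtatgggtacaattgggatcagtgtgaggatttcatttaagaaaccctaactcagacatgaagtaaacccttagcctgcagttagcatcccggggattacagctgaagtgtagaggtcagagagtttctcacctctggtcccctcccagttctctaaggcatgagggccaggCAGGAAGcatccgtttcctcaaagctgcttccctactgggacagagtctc
Tek, chr4:94739039-94739288, plus strand: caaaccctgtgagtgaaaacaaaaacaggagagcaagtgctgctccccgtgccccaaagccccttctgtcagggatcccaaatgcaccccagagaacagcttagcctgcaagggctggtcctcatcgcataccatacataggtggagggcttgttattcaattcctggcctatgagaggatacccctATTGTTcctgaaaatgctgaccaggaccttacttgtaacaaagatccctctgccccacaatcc
Tie1, chr4:118489850-118490099, minus strand: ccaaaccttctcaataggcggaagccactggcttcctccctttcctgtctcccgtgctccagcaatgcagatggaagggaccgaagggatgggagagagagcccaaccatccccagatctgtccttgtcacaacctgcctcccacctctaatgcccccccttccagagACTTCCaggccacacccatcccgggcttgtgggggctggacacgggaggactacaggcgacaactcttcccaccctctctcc
Egfl7, chr2:26580833-26581082, plus strand: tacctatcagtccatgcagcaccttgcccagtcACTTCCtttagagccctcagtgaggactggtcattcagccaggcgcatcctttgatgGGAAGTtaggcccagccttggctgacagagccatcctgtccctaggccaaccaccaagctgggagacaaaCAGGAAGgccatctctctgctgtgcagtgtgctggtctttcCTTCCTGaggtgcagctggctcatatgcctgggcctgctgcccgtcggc

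In Robo4 the longer ETS letters lie 50 to 44 bases before the start, in Tie1 the ETS core lies 82 to 77 bases before it, and in Tek the SOX letters lie 63 to 58 bases before it. Egfl7 holds 4 ETS matches, the nearest 49 to 43 bases before its start. Of the 8 called-higher genes with a window, 4 held GGAAGT on either strand (Egfl7, Eng, Kdr and Tie1), as did 19.9% of the windows of 27025 genes. The longer CAGGAAG was in 2 of the 8 (Egfl7 and Robo4) and in 10.5% of all windows, and AACAAT in 1 of 8 (Tek) and 9.62% of all windows. Of the 17 uncalled genes with a window, 4 held GGAAGT, 2 CAGGAAG and 2 AACAAT. Of the 3 called-lower genes with a window, 1 (Apln) held CAGGAAG. A match describes letters only.

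How a gene was read depended on its probes. Of the 26 genes with several probes, 12 had probe means over 1 apart, and 3 of the genes not called (Pecam1, Sox17 and Reln) had a probe that was called on its own. Among the 87 probes, 26 were called higher (29.9%) and 8 lower (9.2%), against 10.5% and 8.22% of all 32664 probes with 1 gene symbol. The 69 endothelial probes with a RefSeq accession had 25 called higher (36.2%), 7 lower (10.1%) and none at 0 on all arrays. The 18 probes with another cDNA accession had 1 called higher (5.56%), 1 lower (5.56%) and 5 at 0 on all arrays (27.8%). Over all named probes, 11.5% of those with a RefSeq accession were called higher and 9.15% lower. Of all those with another cDNA accession, 5.41% were called higher and 3.85% lower. The same kinds were at 0 on all arrays in 6.09% and 15.1%. With RefSeq probes alone, 24 of the endothelial genes were called higher and 3 lower, among 2215 higher and 1590 lower of all genes. The plot of single probes shows these 12 genes.

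**Figure D2:**
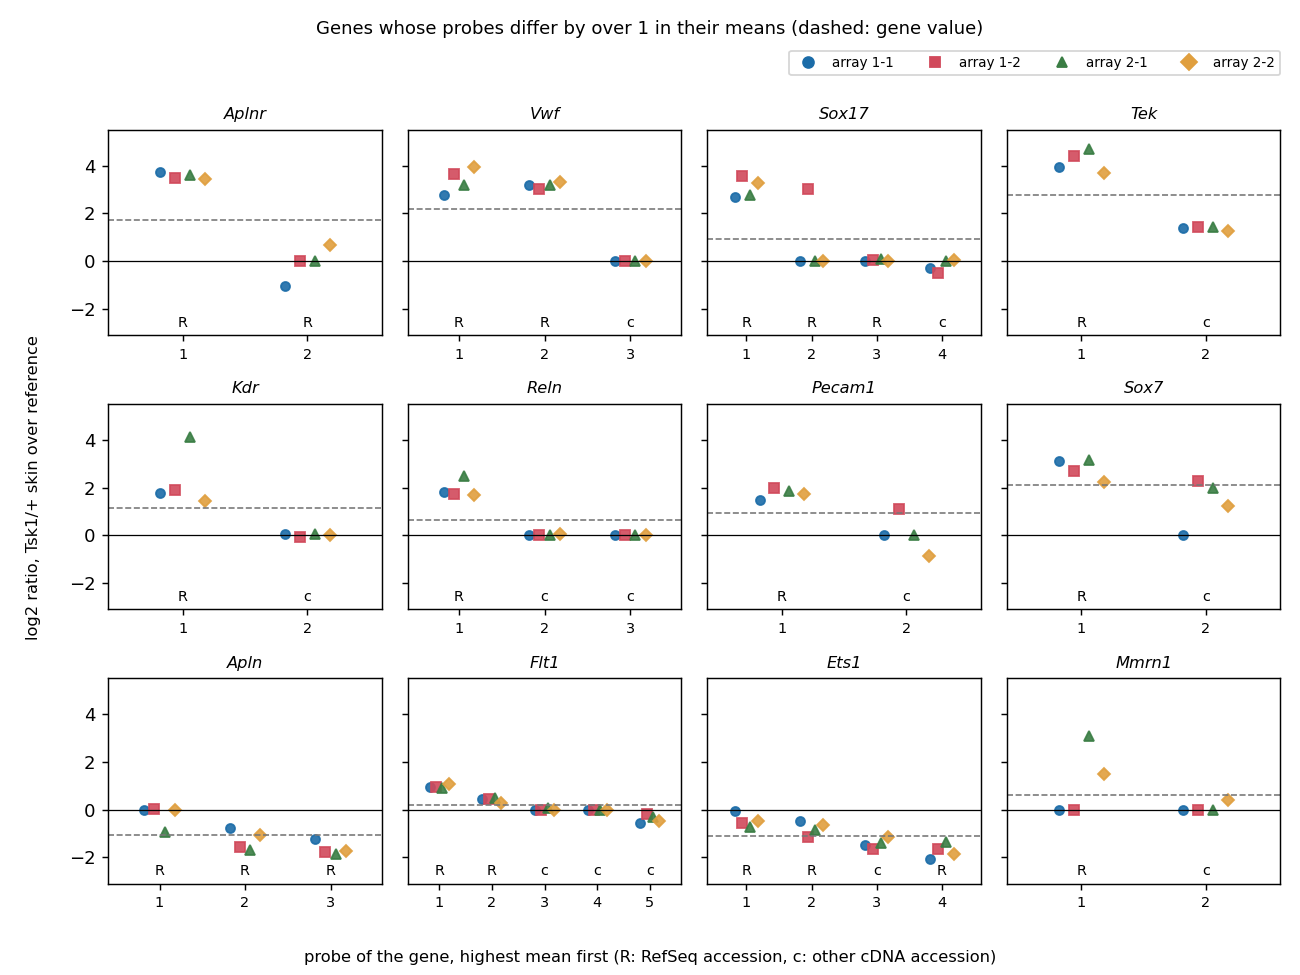
The log2 ratio of skin over reference (y axis) is shown for every probe (x axis, highest mean first; R for a RefSeq accession, c for another cDNA accession) of the 12 endothelial genes with probe means over 1 apart, with 1 point per array and the gene value as a dashed line. In Vwf, Kdr and Reln at least 1 probe is above 1 on all 4 arrays while another lies at or near 0.

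Some endothelial probes were listed at 0 on some arrays and were high on others. Of the 87 probes, 4 (4.6%) had both an exact 0 and a size of at least 3, those of Cdh5, Emcn, Sox17 and Mmrn1, against 1.37% of all named probes. The arrays at 0 were not the same for each: 1-2 and 2-2 for Cdh5, 1-2 and 2-1 for Emcn, and 1-1 and 1-2 for Mmrn1. The Sox17 probe was high on array 1-2 alone and at 0 elsewhere. Among the further endothelial genes, Cldn5, the claudin of endothelial tight junctions, had 4.75, 6.09 and 6.77 on 3 arrays and was listed at 0 on array 2-2 (limma adjusted p = 0.0774). The plot of such probes places these genes beside those of the other lists.

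**Figure D3:**
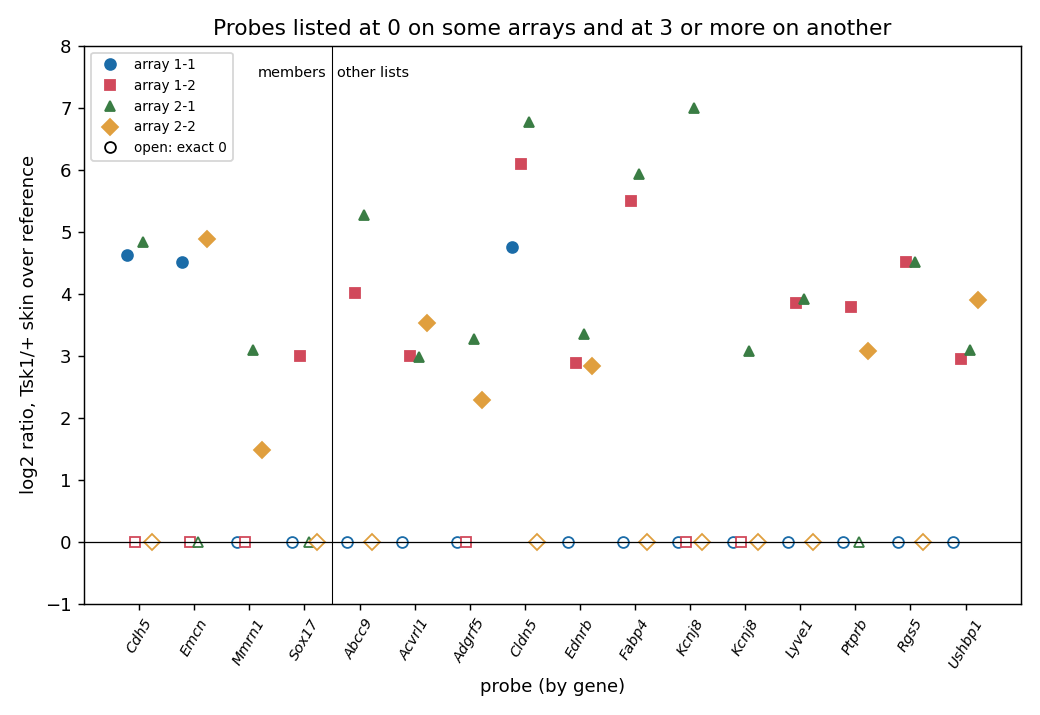
The log2 ratio of skin over reference (y axis) is shown on each array for probes (x axis, by gene) with an exact 0 on some arrays (open symbols) and a value of at least 3 on another (filled symbols), endothelial genes at the left and other vascular, mural and fat genes at the right. Cdh5 and Emcn are above 4 on 2 arrays and at 0 on the other 2, and only array 1-2 is at 0 for both.

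Further genes of the same pathways were counted from lists, with the lowest and highest of each named. Of 26 further endothelial genes, 9 were called higher and 3 lower, with a median of 0.97. Ramp2, the adrenomedullin receptor's partner protein, had 4.57, 3.96, 4.20 and 4.98 (mean 4.43, limma adjusted p = 0.000706). Vcam1, an adhesion molecule of activated endothelium and of many stromal cells, was lowest, with -1.87, -2.09, -2.02 and -2.21 (mean -2.05, limma adjusted p = 0.000435), and Tm4sf1 averaged -1.75 (limma adjusted p = 0.00121). Of 24 further angiogenic signalling genes, 9 were called higher and 2 lower, with a median of 0.50. Ednrb, an endothelin receptor that melanocytes also carry, averaged 3.12 (limma adjusted p = 0.00646), and the Notch ligand Jag2, also made by keratinocytes, 3.11 (limma adjusted p = 0.000793). The peptide Adm averaged -2.32 (limma adjusted p = 0.000863) and the chemokine Cxcl12 -1.32 (limma adjusted p = 0.000667). Dll4 and Hey2, Notch genes of arteries and sprouting tips, were listed at 0 on all 4 arrays, as were 1158 of all 19532 genes. Other Notch genes of the list were called higher: Notch4 (mean 1.49), Notch1 (1.29), Jag1 (1.29) and Hey1 (1.08).

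Markers of cells that lie with or in vessels were read on the same scale, and their part in the endothelial ratios was not tested. Of 12 mural genes, of pericytes and vascular smooth muscle, 6 were called higher and 1 lower, with array medians of 0.96 to 1.75. Myh11 averaged 4.64 (limma adjusted p = 0.000472). Des, which skeletal muscle also makes, averaged 4.39 (limma adjusted p = 0.000391). Tagln averaged -1.41 (limma adjusted p = 0.000872) and Acta2 0.05, the 5 Acta2 probes ranging from -1.58 to 2.65. Of 7 platelet genes, which bear on Vwf, Selp and Mmrn1, none was called higher and 2 lower, with array medians of -0.56 to -0.22. Gp1bb averaged 0.72 and Gp6 0.02, the latter listed at 0 on 2 arrays, against -1.68 for Treml1 (limma adjusted p = 0.00461) and -1.66 for Gp9 (limma adjusted p = 0.0262).

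Of 5 red cell genes, 3 were called higher, with array medians of 3.20 to 3.47. Hbb-bt averaged 4.75 and Hba-a1 3.71, globin copies that may share probes, while Alas2 averaged 0.55 and Slc4a1 0.01, each listed at 0 on 2 arrays. Of 9 leukocyte genes, which bear on Ets1, Fli1 and Lmo2, 5 were called higher and none lower, with array medians of 0.98 to 1.13. Lyz2 averaged 4.24 and Cd3d 2.31, against -0.39 for Ptprc and -0.36 for Cd3e. The 6 adipocyte genes were looked at beside the epidermal genes that set the direction, so their sign is no result. Their array medians were 5.77 to 6.25, from Cidec at 7.69 and Plin1 at 7.17 to Lep at 3.30 and Lipe at 1.88. The red cell median was above that of the identity genes, and the mural, leukocyte and platelet medians below it, as the plot of the lists shows.

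**Figure D4:**
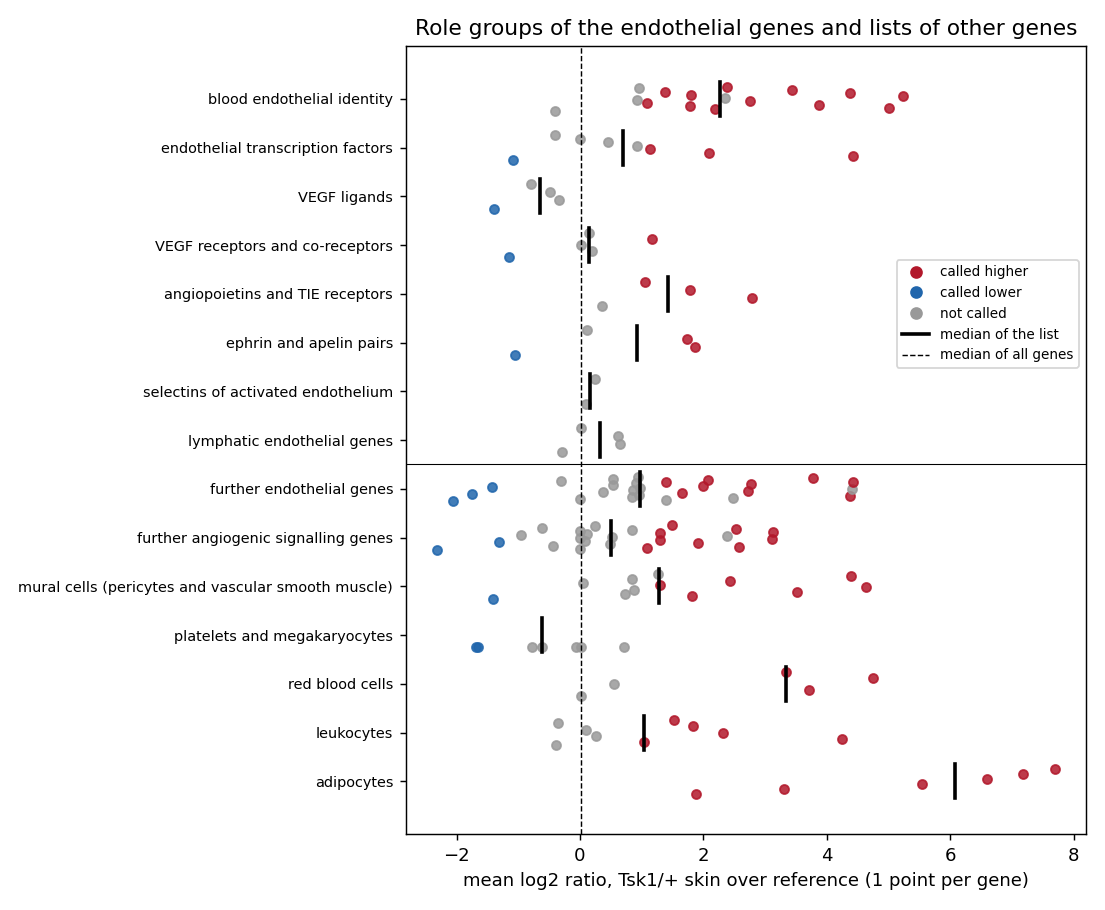
The mean log2 ratio of skin over reference (x axis) is shown for each gene (1 point) of the endothelial role groups (above the line) and of the other lists (below it), coloured by call, with each list's median as a bar and the median of all genes as a dashed line. The identity genes (median 2.27) lie to the right of the VEGF ligands (median -0.64). The adipocyte genes (median 6.07) were looked at when the direction was chosen, so their sign is no result.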

How the data were processed

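The authors deposited a log ratio per probe and array, taken here as log2. How background and normalization were handled, and the log base and direction, are not stated by the labels, and scanner intensities were not used here. Per the labels, 200 ng of total RNA was labelled with an Agilent kit. The log base was read from the spacing of repeated values: of 3120 pairs among the 40 commonest values, 21 lay 2 times the log2 of 2 apart (tolerance 0.001), where a natural log would give 2 and log10 would give 4. The deposited columns had medians of 0.00, so how arrays were centred stays unknown. Signs were turned as the report describes. Probes with 1 gene symbol (32664 of 41174) were averaged per gene, exact zeros kept. A gene needed values from 3 or more arrays. Its mean was tested against 0, two-sided, by lmFit and eBayes of limma 3.58.1 (R 4.3.3). The 47 genes and all lists were chosen with earlier results of these data known. Every one of the 47 was to be described, and of each other list the 2 highest and 2 lowest genes. To these Ccl21a, Lyve1, Nr2f2, Dll4, Hey2, Notch1, Notch4, Jag1 and Hey1 were added after their values were seen. Precision is limited by the 4 arrays. The fit was tested on simulated data. Plots used matplotlib 3.10.9 (Python 3.11.15).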

Additional observations from a re-analysis of the deposited data

Results flagged for a closer look

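In 4 of the 47 endothelial genes 1 array lay far from the other 3, relative to the whole range of the gene. Chance alone gives such a gap in about 1 in 20 genes. Plvap had 4.24 on array 2-2, against 3.72 to 3.78 on the others. Kdr had 2.09 on array 2-1, against 0.73 to 0.93, and Reln had 0.82 on array 2-1, against 0.58 to 0.60. Erg had 0.01 on array 1-2 and 0.00 on the others, a gap made of repeated values.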

How the results depend on the processing

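Tested against a 2-fold change (limma's treat), 1338 genes were higher and 694 lower, with 13 endothelial genes higher and 0 lower. With no minimum size, 4534 genes were higher and 3870 lower, with 28 endothelial genes higher and 8 lower. Where every probe of a gene had to be called on its own, 14 endothelial genes were higher and 1 lower, among 1606 and 1162 of all genes. Of the 26 endothelial genes with several probes, only 1 (Tek) met this rule. The others that met it had a single probe, so for them it does not show agreement between probes. The endothelial median moved from 0.92 to 1.16 without exact zeros, 1.38 without zeros and repeated values, 1.06 without genes at 0 on 2 or more arrays, 1.14 with RefSeq probes only and 0.84 with arrays centred on values other than 0, which also ended the call of Angpt2. Leaving out zeros, with or without repeated values, and using RefSeq probes only each added calls of Pecam1, Sox17 and Reln, for 24 higher in place of 21. RefSeq probes only ended that of Ets1. Leaving out each array in turn gave medians of 0.83 to 0.95. Averaging arrays by the first number of their titles ended the calls of Kdr and Apln and added Emcn (limma adjusted p = 0.0204). For Emcn each average joined an exact 0 with a high value (4.52 or 4.89), so the averages lay close although the arrays did not. Over the 4 arrays its SD was 2.72 (limma adjusted p = 0.229). The first title number as a random block changed no call, but its correlation was negative (-0.311), which makes the setting less strict. The limma adjusted p of Cdh5 fell there from 0.0283 to 0.0103. No paired analysis was possible because the samples form 1 group. The 13 genes Vwf, Egfl7, Esam, Robo4, Gpihbp1, Plvap, Nos3, Mmrn2, Ecscr, Sox18, Tek, Tie1 and Aplnr were called higher under all 15 alternatives computed on gene values. They are the same 13 that passed limma's treat, so that setting alone fixes the list. Some alternatives, such as no minimum size, cannot end a call. The cause of the other changes was not tested. No called gene changed sign in any of them. Exact zeros and repeated values limit what can be said of Erg, Flt4, Sele, Prox1, Emcn and Mmrn1.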
